A study of Mus musculus with 2 samples.

Results

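Monocytes and their precursors were taken from a mouse liver library labelled P180, in which 234 of 9582 kept barcodes (2.44%, exact binomial 95% interval 2.14 to 2.77) met the rule below. A barcode is the sequence tag of 1 droplet, which as a rule holds 1 cell, and a UMI is a tag counted once per captured RNA molecule. Of the 9771 barcodes in the library, 9582 were kept, each with 200 genes or more, 500 UMIs or more and less than 25% of UMIs from mitochondrial genes. The sum of the 5 markers F13a1, Ly6c2, Ccr2, Csf1r and Ms4a6c reached at least 5 UMIs in 1164 of these. Leaving out barcodes with 0.5% or more of the granule proteases Elane, Mpo, Prtn3 and Ctsg left 998, and leaving out those with 1% or more of Camp and Ngp, 2 genes of neutrophil secondary granules, left 256. The last clauses, under 10% haemoglobin transcripts and no UMI of the B cell gene Cd79a, gave the 234. Both libraries together hold 19642 barcodes. The barcodes were thus selected on the measured values of these 16 genes, so their levels are given as a description and support nothing.

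Monocytes are blood phagocytes that arise from granulocyte-monocyte and monocyte-dendritic progenitors, in the fetal liver before birth and in the bone marrow afterwards. Csf1r, the receptor for macrophage colony-stimulating factor, supports their development, and Ccr2, a chemokine receptor, lets classical Ly6c-high monocytes leave the marrow. Monocyte-dendritic progenitors also give rise to dendritic cells, which depend on Flt3 and Irf8 and display peptides on class II molecules, whereas non-classical monocytes carry Cx3cr1 and depend on Nr4a1.

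The study prepared 2 tetraploid (4N) mouse livers for 10x Genomics 3′ single-cell RNA sequencing, 1 labelled P180 (postnatal day 180) and 1 labelled E18.5 (a late embryonic stage). Both came from Hhex knockout host blastocysts that received tdTomato-positive 4N embryonic stem cells, both carry the treatment entry "4N-treatment", and the mice were kept under normal husbandry. A host embryo still has cells of its own in blood and liver, and the gene table of 32285 entries has 0 tdTomato features, so donor and host cells could not be told apart. With 1 library per stage, no difference between the labels has a replicate check, and stage, animal and library cannot be told apart. Intervals below are exact Poisson or binomial ones and cover counting error only.

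The contents of the libraries were unlike what the stage labels name. Haemoglobin genes made up at least 10% of the UMIs in 7513 kept barcodes (78.4%) of the library labelled P180, against 134 (2.84%) of the 4721 kept in the library labelled E18.5, although blood formation in the liver is a feature of fetal life. The labels are therefore used only as names of libraries, and no change with age is read from them. The barcodes of the rule also differed in sex-linked RNA between the libraries. The Y-linked genes Eif2s3y and Uty had 463 and 246 UMIs in the P180 barcodes of the rule, against 0 UMIs in the E18.5 barcodes of the rule, at least 183-fold and 97.1-fold higher against a floor of 3 UMIs over the group. Ddx3y, also Y-linked, had 325 UMIs in the P180 barcodes and 7 UMIs in the E18.5 barcodes of the rule, so Y-linked RNA was not wholly absent there. Xist, the RNA that coats the inactive X chromosome, had a UMI in 1 of the 234 P180 barcodes against 575 of the 604 E18.5 barcodes. The libraries shared 28 barcode sequences, and 0 of the 234 barcodes was among them. Hhex, the gene deleted in the hosts, stood at 82.2 counts per 1000000 UMIs (CPM) in the P180 barcodes and 72.5 CPM in the E18.5 barcodes of the rule. The labels do not say which part of Hhex was deleted, so these 3′ tags check no label.

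The 234 barcodes were deeply sampled. They held 5836686 UMIs, with a median of 23735.5 UMIs (range 507 to 67655) and 4878.5 genes per barcode and 1.43% mitochondrial UMIs. The same rule in the library labelled E18.5 gave 604 barcodes (12.8% of those kept, 11.9 to 13.8) with a median of 9295.5 UMIs and 5.07% mitochondrial UMIs. Both depth and mitochondrial share thus differ in every comparison between the labels, and their part in those differences was not tested.

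Barcodes just inside and just outside the limits of the rule were few. At the limit of 5 marker UMIs, the 9 barcodes just inside had a median of 1.77% class II transcripts, against 0.00281% in the 13 barcodes with 4 marker UMIs. At the granule protease limit, 7 barcodes between 0.4% and 0.5% had a median of 14 F13a1 UMIs, and 6 barcodes between 0.5% and 0.6% had a median of 25. At the Camp and Ngp limit, 5 barcodes stood between 0.5% and 1%, with a median of 17.1% of their UMIs from S100a8 and S100a9, and 1 stood between 1% and 1.5%, with 13.8%. The Camp and Ngp clause alone removed 658 barcodes, whose median share of S100a8 and S100a9 was 19.7%. The granule protease clause alone removed 85, the haemoglobin clause 11 and the Cd79a clause 10.

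The markers that chose the barcodes were unevenly spread among them. F13a1, the A subunit of coagulation factor XIII (mm10 chr13:36867178-37050244, minus strand), had a UMI in 155 barcodes (66.2%, 59.8 to 72.3), with 0, 7 and 62 UMIs as the lowest, median and highest per barcode. Ly6c2, a surface protein of classical monocytes (chr15:75108158-75111970, minus strand), was detected in 195 (83.3%, 77.9 to 87.9), with 0, 12 and 131 UMIs. Ccr2 (chr9:124101950-124113557, plus strand) was detected in 214 (91.5%, 87.1 to 94.7), with 0, 7 and 46 UMIs. Ms4a6c, a membrane protein of myeloid cells (chr19:11469366-11482192, plus strand), was detected in 205 (87.6%, 82.7 to 91.5), and Csf1r in 176 (75.2%, 69.2 to 80.6). All 5 markers were detected in 125 barcodes (53.4%), 4 in 37, 3 in 39, 2 in 22 and a single one in 11. Haemoglobin-rich barcodes of the same library, which should lack these genes and had a median of 5409 UMIs, held a UMI of F13a1 in 0.612%, of Ly6c2 in 4.29%, of Ccr2 in 0.466%, of Csf1r in 0.386% and of Ms4a6c in 0.825%.

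Class II transcripts divided the barcodes into groups with little between them. In 59 barcodes (25.2%, 19.8 to 31.3) the sum of Cd74, H2-Aa, H2-Ab1 and H2-Eb1 was at least 0.2% of UMIs, with a median of 1.86%, and in 175 it was lower, with 2 barcodes within 20% of the limit. These are called class II-rich and class II-poor. As a description, since both genes chose the barcodes, F13a1 had a UMI in 3 of the 59 and 152 of the 175, and Ccr2 in 56 of the 59 and 158 of the 175. All 5 markers were detected in 2 class II-rich and 123 class II-poor barcodes. Class II-poor barcodes with at least 4 markers detected, 153 in all, are called the core. The core was set after these values were seen. Median depth was close in the groups, 24899 UMIs in class II-rich and 22714 in class II-poor barcodes.

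**Figure D1:**
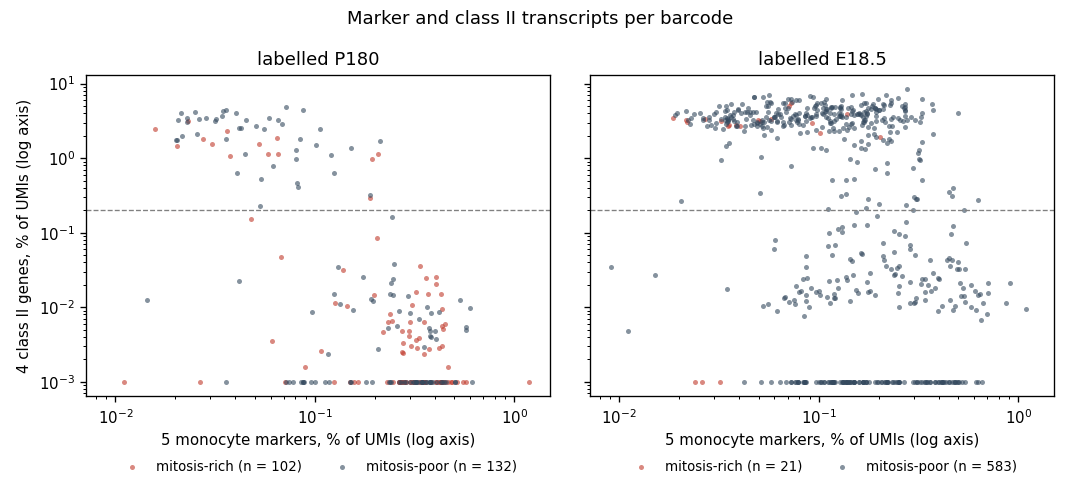
Each point is 1 barcode of the rule, with the 5 monocyte markers as a percentage of its UMIs on the x axis and 4 class II genes on the y axis, both on log axes with zeros drawn at 0.001%, for the libraries labelled P180 (left) and E18.5 (right). The dashed line is the 0.2% limit, above which 59 of 234 barcodes lie on the left and 346 of 604 on the right, and colour marks mitosis-rich barcodes, 102 on the left and 21 on the right.

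The promoters of class II genes carry shared elements, the X box and the Y box, on which the coactivator Ciita works through proteins bound there. The promoters of H2-Aa, H2-Eb1 and H2-DMb1 are shown as examples of such promoters. H2-Aa and H2-Eb1 are 2 of the 4 genes that set the split, so their difference across it is fixed, and H2-DMb1 is not one of them. RefSeq promoters (GRCm38.p6) were at hand for 8 of the 11 genes on the class II list, and the stretches run from 160 to 41 bases before the gene start on chromosome 17. H2-Aa, an alpha chain, lies at 34287864 to 34287983 on the minus strand, H2-Eb1, a beta chain, at 34305707 to 34305826 on the plus strand, and H2-DMb1, part of the peptide loading factor, at 34153031 to 34153150 on the plus strand.
H2-Aa: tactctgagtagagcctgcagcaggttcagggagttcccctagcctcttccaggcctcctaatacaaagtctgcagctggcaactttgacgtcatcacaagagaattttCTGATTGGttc
H2-Eb1: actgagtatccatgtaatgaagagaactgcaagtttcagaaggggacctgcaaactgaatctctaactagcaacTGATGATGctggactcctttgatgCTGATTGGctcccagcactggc
H2-DMb1: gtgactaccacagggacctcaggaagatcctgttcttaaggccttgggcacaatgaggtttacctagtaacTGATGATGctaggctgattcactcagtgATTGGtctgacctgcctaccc
Capitals mark the Y box letters CTGATTGG or, in H2-DMb1, the core ATTGG alone, and the X box string TGATGATG, which was chosen after the sequences were seen. The H2-Aa stretch has no TGATGATG, and X box letters other than this string were not searched, so its X box is not shown to be absent. CTGATTGG contains ATTGG, and both strands were searched. In windows of 300 bases, ATTGG was present in 37.4% of 32851 promoters, CTGATTGG in 4.1% and TGATGATG in 1.44%. A match of letters is a description and not a binding site.

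Class II-rich barcodes carried genes of dendritic cells and little of the classical monocyte programme. Of 7874 genes with at least 50 UMIs on either side, 5.7% were at least 2-fold higher and 9.45% at least 2-fold lower in class II-rich than in class II-poor barcodes. Against that background, 13 of the 14 measured genes of the dendritic list were higher and 0 lower, and 15 of the 20 classical monocyte genes were lower and 0 higher. The sums are unequal, 1517556 UMIs in class II-rich and 4319130 in class II-poor barcodes. Through the class II-poor side alone 3220 genes reached 50 UMIs, and 84 through the class II-rich side alone. Counts of lower genes are thus favoured in every list compared across this split. Of the 16 classical genes that the rule did not use, 12 were lower and 0 higher, so that the name monocyte is less apt for the class II-rich barcodes, which are called by their class II genes. The dendritic list includes the 4 genes of the split itself, and of the 10 others 9 were higher, with a median of 4.48. The median log2 ratio of the whole list was 5.86 and that of the classical list -4.01, with -0.10 over all genes.

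Several of the dendritic genes outside the split are known from dendritic cells that take up and cross-present dead cell antigens. Clec9a, a receptor for exposed actin of dead cells, stood at 203 CPM in class II-rich and 3.01 CPM in class II-poor barcodes, and had a UMI in 44 of the 59 and 6 of the 175. Xcr1, the receptor for the chemokine Xcl1, stood at 61.3 CPM in class II-rich and 0.463 CPM in class II-poor barcodes. Itgae, the integrin chain CD103, stood at 57.99 CPM in class II-rich and 1.16 CPM in class II-poor barcodes. Batf3, a transcription factor on which Clec9a-positive dendritic cells depend, reached 182 CPM in class II-rich and 12.3 CPM in class II-poor barcodes. Zbtb46, a factor of conventional dendritic cells, stood at 77.8 CPM in class II-rich and 2.32 CPM in class II-poor barcodes. Flt3, the growth factor receptor of this lineage, was 5.27-fold higher, at 122 CPM in class II-rich against 23.2 CPM in class II-poor barcodes. Ciita, the class II coactivator, stood at 165 CPM in class II-rich and 0.926 CPM in class II-poor barcodes. Both chains of the peptide loading factor followed, H2-DMb1 at 454 CPM in class II-rich and 34.7 CPM in class II-poor barcodes and H2-DMa at 478 CPM in class II-rich and 145 CPM in class II-poor barcodes.

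Most transcription factors were within 2-fold between the groups, 26 of the 35 measured, with 3 higher and 6 lower, against 5.7% higher and 9.45% lower of all genes. Irf8, which directs progenitors towards monocytes and dendritic cells and away from granulocytes (chr8:120736358-120756694, plus strand), was present in both at unequal levels, 1879 CPM in class II-rich and 406 CPM in class II-poor barcodes, a log2 ratio of 2.21 (95% interval 2.12 to 2.30). Id2, an inhibitor of E proteins, stood at 1665 CPM in class II-rich and 491 CPM in class II-poor barcodes. Zeb2 and Cebpb are both used by monocytes. Zeb2 was lower, at 160.1 CPM in class II-rich against 925 CPM in class II-poor barcodes, and so was Cebpb, at 111 CPM in class II-rich against 716 CPM in class II-poor barcodes. Spi1, the PU.1 factor shared by myeloid cells, was within 2-fold, at 389 CPM in class II-rich and 432 CPM in class II-poor barcodes. Klf4, which monocytes need to mature, was also within 2-fold, at 227 CPM in class II-rich and 373 CPM in class II-poor barcodes.

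Most classical monocyte genes were low in class II-rich barcodes, with Ccr2 the main exception among the markers. F13a1 stood at 1.98 CPM there against 559 CPM in class II-poor barcodes. Fn1, fibronectin, stood at 1.98 CPM in class II-rich against 294 CPM in class II-poor barcodes, and Vcan, the matrix proteoglycan versican, stood at 0.659 CPM in class II-rich against 124 CPM in class II-poor barcodes. Lyz2, lysozyme, stood at 467 CPM in class II-rich and 9162 CPM in class II-poor barcodes, a log2 ratio of -4.30 (95% interval -4.40 to -4.19). Ly6c2 stood at 48.8 CPM in class II-rich and 1083 CPM in class II-poor barcodes. Ccr2, at 237 CPM in class II-rich and 414 CPM in class II-poor barcodes, was the marker of the rule with the smallest difference. Ms4a6c stood at 232 CPM in class II-rich and 667 CPM in class II-poor barcodes and Csf1r at 48.8 CPM in class II-rich and 114 CPM in class II-poor barcodes. These 5 genes chose the barcodes, so a barcode with few F13a1 UMIs needed others to enter.

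Surface and defence genes followed the same split, in counts that the unequal sums of the groups tilt towards lower genes. Of all genes, 5.7% were higher and 9.45% lower in class II-rich barcodes. Of 23 measured pattern recognition genes, 1 was higher and 16 were lower there. Among them, Tlr2, a receptor for bacterial lipoproteins, stood at 28.3 CPM in class II-rich against 125 CPM in class II-poor barcodes. Clec4e and Clec4d, C-type lectins for microbial glycolipids, had 1 UMI each in class II-rich and 144 and 159 UMIs in class II-poor barcodes. Cd36, a scavenger receptor, was the 1 that was higher, at 77.8 CPM in class II-rich against 12.7 CPM in class II-poor barcodes. Of 19 Fc receptor and phagocytosis genes 12 were lower and 0 higher, Fcgr3 at 7.25 CPM in class II-rich against 113 CPM in class II-poor barcodes. Among 10 chemokine receptors, 2 were higher and 7 lower. Cxcr3, 1 of those that were higher, stood at 41.5 CPM in class II-rich against 2.55 CPM in class II-poor barcodes. Ccr1, 1 of those that were lower, stood at 3.95 CPM in class II-rich against 69.5 CPM in class II-poor barcodes.

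Class I and interferon genes leaned the other way. Of 14 measured class I presentation genes 7 were higher in class II-rich barcodes and 0 lower, beside 5.7% higher and 9.45% lower of all genes. H2-K1, a class I heavy chain, stood at 384 CPM in class II-rich against 158 CPM in class II-poor barcodes. Tap1, a peptide transporter subunit, stood at 122 CPM in class II-rich against 32.6 CPM in class II-poor barcodes, and Psmb8, an immunoproteasome subunit, at 797 CPM in class II-rich against 239.6 CPM in class II-poor barcodes. Of 28 interferon response genes 9 were higher and 4 lower, Ifi205 standing at 341 CPM in class II-rich against 7.41 CPM in class II-poor barcodes. Ribosome and growth genes did not separate the groups by 2-fold in any of 19 measured cases, and dissociation stress genes did in 1 of 19. The 13 measured myeloid progenitor genes went both ways, 3 higher and 4 lower, with a median log2 ratio of -0.81. Among the 3, Kit, the stem cell factor receptor, stood at 49.4 CPM in class II-rich against 7.64 CPM in class II-poor barcodes and Cd34 at 149.6 CPM in class II-rich against 68.1 CPM in class II-poor barcodes.

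Neutrophil transcripts were concentrated in the class II-poor group. Of 17 measured neutrophil genes 13 were lower in class II-rich barcodes and 0 higher, beside 9.45% lower and 5.7% higher of all genes. S100a8, a subunit of calprotectin (chr3:90668978-90670035, plus strand), stood at 379.6 CPM in class II-rich and 8154 CPM in class II-poor barcodes, and per barcode its lowest, median and highest counts over all 234 were 0, 19.5 and 2487 UMIs. A few barcodes held transcripts of other cells. Retnlg, a neutrophil gene, had 10 or more UMIs in 13 barcodes, which held 99.5% of its 2621 UMIs, 12 of them class II-poor and 0 in the core. Gzma, a cytotoxic granule protease, reached 10 UMIs in 3 barcodes and the mast and basophil proteases Mcpt8 or Prss34 in 2, and 0 of the 17 barcodes concerned were in the core. Summed over the 234, the neutrophil list made up 1.35% of UMIs, the erythroid marker list 0.711%, the macrophage list 0.120%, the T and NK list 0.0144%, the B cell list 0.0127% and the hepatocyte list 0.00571%. C1qa, Marco, Vsig4, Clec4f, Cd5l, Spic and Vcam1, 7 of the 24 macrophage genes, were at 0, a count of 0 that by the limit of 3 counts allows up to 1.28% of barcodes with a UMI, and says nothing of cells whose transcripts were not captured.

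Set against its neighbours in the same library, the 234 barcodes were compared with early granulocyte progenitors and neutrophils. The granule progenitors are 177 barcodes with 0.5% or more of the 4 granule proteases, and the Camp and Ngp neutrophils are 852 barcodes, so that granule genes differ by construction. Of 9103 genes measured against granule progenitors, 19.5% were at least 2-fold higher and 5.08% at least 2-fold lower in the 234 barcodes, around a shift of 0.17 on the log2 scale. Relative to the shift, 16.1% were higher and 6.50% lower. Of the 20 classical monocyte genes, 4 of which the rule used, 12 were higher and 2 lower. Of the 16 others, 9 were higher and 2 lower, with a median log2 ratio of 2.50 against 0.20 over all genes. Of the markers that chose the barcodes, given as a description, Ly6c2 was within 2-fold, at 814 CPM in the 234 barcodes and 1127 CPM in granule progenitors. Ccr2 stood at 368 CPM in the 234 barcodes and 33.5 CPM in granule progenitors. Fn1, outside the rule, stood at 218 CPM in the 234 barcodes and 1.60 CPM in granule progenitors. Irf8, Klf4 and Zeb2 stood at 789, 335 and 726 CPM in the 234 barcodes, against 123, 56.2 and 176 CPM in granule progenitors. The Irf8 level rests in large part on the class II-rich barcodes, and in class II-poor barcodes alone it was 406 CPM. Gfi1 and Cebpe, factors of the granulocyte branch, ran the other way, with 1.54 and 27.6 CPM in the 234 barcodes and 75.4 and 379 CPM in granule progenitors. Ms4a3, a gene of granulocyte-monocyte progenitors, stood at 10.5 CPM in the 234 barcodes and 1220.3 CPM in granule progenitors, and Spi1 at 421 CPM in the 234 barcodes and 408 CPM in granule progenitors.

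Of 9533 genes measured against Camp and Ngp neutrophils, 47.1% were at least 2-fold higher and 7.49% at least 2-fold lower in the 234 barcodes, and the median over genes with counts in both groups was shifted by 0.92 on the log2 scale. Relative to that shift, 19.9% were higher and 16.6% lower, and the counts that follow are relative to it. Among 19 measured ribosome and growth genes, 12 were higher by 2-fold or more and 7 were within it, with a median of 1.12. Of 20 neutrophil genes 19 were lower, with a median of -5.39. Limits on Camp and Ngp formed both groups, so granule genes in this count differ by construction. Of the 30 mitosis genes described below 0 were higher and 7 lower, with a median of -0.75. Lyz2 stood at 6902 CPM in the 234 barcodes and 11699 CPM in neutrophils. Irf8 stood at 789 CPM in the 234 barcodes and 3.88 CPM in neutrophils. F13a1, which chose the barcodes and is given as a description, stood at 414 CPM in the 234 barcodes and 8.16 CPM in neutrophils.

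Against all 9348 other kept barcodes, 13234 genes were measured, of which 44.0% were higher by 2-fold or more and 13.5% lower by 2-fold or more, around a shift of 1.07 on the log2 scale. Relative to it, 10.1% were higher and 26.1% lower. The highest ratios among genes that could be named and were not used by the rule belonged to Ms4a4c, a relative of Ms4a6c, at 112 CPM against 1.83 CPM in the other barcodes, and to C-type lectins, Clec4a3 at 45.1 CPM in the 234 barcodes against 0.845 CPM in other barcodes and Clec4a1 at 47.1 CPM in the 234 barcodes against 0.904 CPM in other barcodes. Arhgef37, Vcan, Fcgr1, a high-affinity IgG receptor, and Zbp1, a nucleic acid sensor, were also among the 10 highest. Among genes that the rule for naming genes admits, with at least 200 UMIs, Sparc, a matrix protein, had the lowest ratio, with 1 UMI in the 234 barcodes and 3401 in the others.

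**Figure D2:**
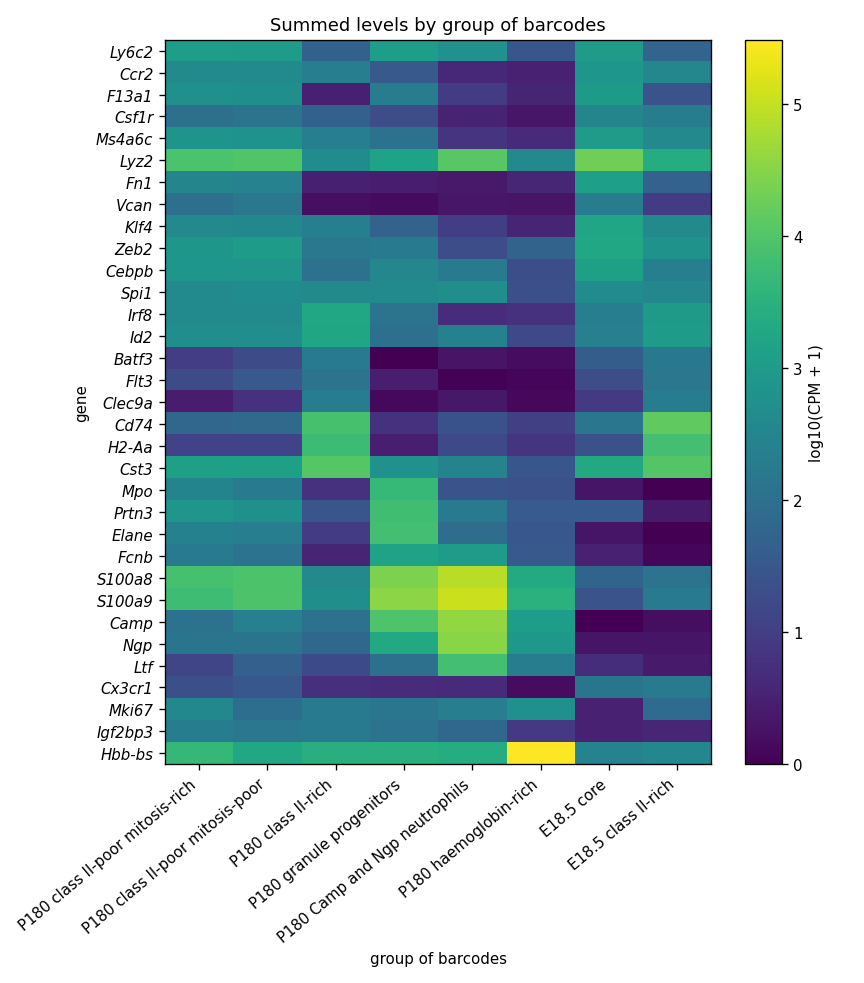
Summed levels of 33 genes as log10(CPM + 1), by colour, in 8 groups of barcodes. Clec9a and Batf3 are brightest in the class II-rich columns of both libraries, Irf8 is brightest in the P180 class II-rich column and dim in neutrophils, and Mki67 is brighter in the mitosis-rich than in the mitosis-poor class II-poor column.

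Many of the barcodes carried mitosis transcripts. A barcode was called mitosis-rich where 30 genes of mitosis and chromosome segregation reached at least 0.3% of its UMIs, and mitosis-poor otherwise. That held for 102 of 234 (43.6%, 37.1 to 50.2), with 20 barcodes within 20% of the limit. The share was 14 of 59 class II-rich barcodes (23.7%, 13.6 to 36.6) and 88 of 175 class II-poor barcodes (50.3%, 42.6 to 57.9). In the core it was 81 of 153 (52.9%, 44.7 to 61.1). The limit sets the share: it was 58.5% with a limit of 0.15% and 18.8% with a limit of 0.6%. Mki67, a protein of the surface of mitotic chromosomes, stood at 179 CPM in class II-rich and 257 CPM in class II-poor barcodes. Mitosis transcripts were not particular to the 234 barcodes. Against granule progenitors 28 of the 30 genes were within 2-fold and 2 higher, with a median log2 ratio of 0.26. Against the other kept P180 barcodes 27 were within 2-fold and 3 higher, with a median of 0.29 beside the shift of 1.07.

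**Figure D3:**
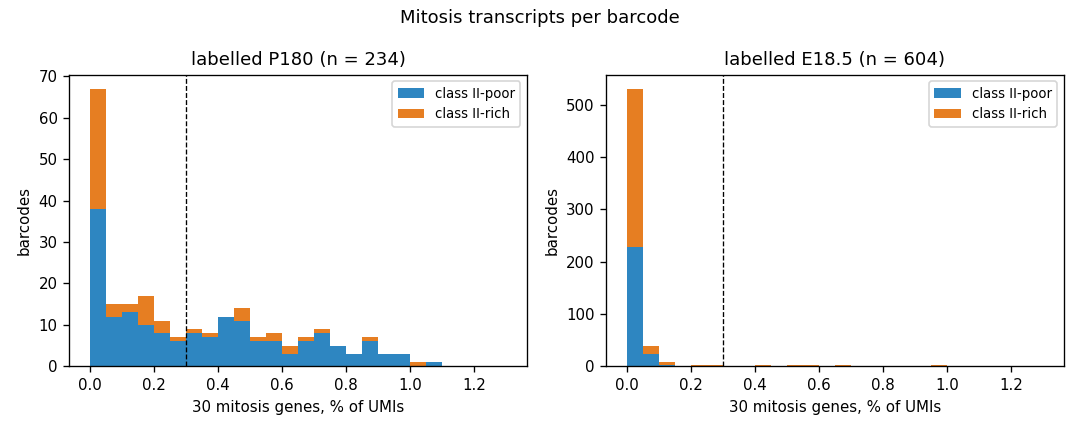
Histogram of barcodes by the percentage of UMIs from 30 mitosis genes, for the libraries labelled P180 (left, 234 barcodes) and E18.5 (right, 604 barcodes), with class II-poor and class II-rich barcodes stacked and the 0.3% limit dashed. In the P180 library 102 barcodes lie at or above the limit and spread beyond 1%, and in the E18.5 library 21 do.

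Mitosis-rich and mitosis-poor core barcodes differed by 2-fold in few genes. Of 6159 genes measured in the core, 3.85% were at least 2-fold higher and 1.19% at least 2-fold lower in the 81 mitosis-rich than in the 72 mitosis-poor barcodes, and the groups were selected on the mitosis list. Over all 234 barcodes, 3.83% of 7238 genes were higher and 3.05% lower in the mitosis-rich ones. Of the 20 classical monocyte genes, 18 were within 2-fold. F13a1 stood at 611 CPM in mitosis-rich and 602 CPM in mitosis-poor barcodes, and Ly6c2 at 1191 CPM in mitosis-rich and 1080.3 CPM in mitosis-poor barcodes. Lyz2 stood at 9449 CPM in mitosis-rich and 10325 CPM in mitosis-poor barcodes, and Klf4 at 409 CPM in mitosis-rich and 380.2 CPM in mitosis-poor barcodes. Genes of DNA replication, which belong to the phase before mitosis, had a median log2 ratio of -0.37, so that mitosis-poor barcodes did not lack them and are not shown to be outside the cell cycle. Mcm5, a helicase subunit, stood at 117 CPM in mitosis-rich and 147 CPM in mitosis-poor barcodes, and Hells, a chromatin remodeller, at 56.9 CPM in mitosis-rich and 126 CPM in mitosis-poor barcodes. The exceptions among the lists included the transcription factors Runx2, at 30.5 CPM in mitosis-rich and 157 CPM in mitosis-poor barcodes, and Tcf4, at 51.3 CPM in mitosis-rich and 171 CPM in mitosis-poor barcodes. Flt3 stood at 11.03 CPM in mitosis-rich and 34.3 CPM in mitosis-poor barcodes. These levels are sums over barcodes, and whether a few barcodes carried most of the UMIs was not tested. Cd14, the coreceptor for lipopolysaccharide, stood at 14.9 CPM in mitosis-rich and 60.9 CPM in mitosis-poor barcodes. Haemoglobin transcripts moved with mitosis transcripts. Hbb-bs stood at 4913 CPM in mitosis-rich and 2003 CPM in mitosis-poor core barcodes, and 8 of 10 measured erythroid markers were higher. Their part in the other differences was not tested.

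The same rule in the library labelled E18.5 gathered a different mix. Of its 604 barcodes, 346 (57.3%) were class II-rich and 108 met the definition of the core. C1q genes reached 10 UMIs in 123 of the 604 and Cd3 genes in 48, and the macrophage list made up 0.667% of UMIs against 0.120% in the P180 barcodes. C1qa, a chain of complement C1q, had the lowest ratio among the genes that could be named over all barcodes of the rule, with 0 UMIs in the P180 barcodes and 660.4 CPM in the E18.5 barcodes. Comparisons are therefore given for all barcodes of the rule and for the core of each library. Over all barcodes of the rule, 9819 genes were measured and 10.6% were higher by 2-fold or more in the library labelled P180, with 14.2% lower, around a shift of 0.13 on the log2 scale. In the core 24.4% of 7533 genes were higher and 7.09% lower. The core sums are unequal, 3932323 UMIs in P180 and 935313 in E18.5, so that 4678 genes reached 50 UMIs through the P180 side alone. Through the E18.5 side alone 35 did, so counts of higher genes are favoured in the core.

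Mitosis genes were higher in the P180 barcodes than in the E18.5 barcodes. At least 0.3% of UMIs came from the 30 mitosis genes in 102 of 234 P180 barcodes, against 21 of 604 (3.48%, 2.16 to 5.27) E18.5 barcodes. In the core it was 81 of 153 against 0 of 108, a count of 0 that by the limit of 3 counts allows up to 2.78%. All 30 mitosis genes were at least 2-fold higher in the P180 barcodes, both over all barcodes of the rule and in the core, with medians of 2.21 and 5.15. Of 30 DNA replication genes, 27 were higher over all barcodes and 30 in the core. Mki67 stood at 237 CPM in P180 against 67.1 CPM in E18.5 barcodes over all barcodes of the rule. In the core it stood at 259 CPM in the P180 core against 2.14 CPM in the E18.5 core, where 2.14 CPM is 2 UMIs. Top2a, a topoisomerase that untangles sister chromatids, had 1004 UMIs in the P180 core and 1 UMI in the E18.5 core. Erythroid transcripts moved with these genes. The erythroid marker list made up 0.711% of UMIs in the P180 barcodes and 0.0817% in the E18.5 barcodes, and the haemoglobin-rich barcodes of the P180 library held Mki67 at 558 CPM. Their part in the difference in mitosis genes was not tested.

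A few RNA-binding and chromatin genes known from fetal cells were higher in the P180 barcodes. Igf2bp3, an RNA-binding protein that fetal blood progenitors use under the control of Lin28b (chr6:49085223-49214957, minus strand), was detected in 201 of 234 P180 barcodes (85.9%) and in 14 of 604 E18.5 barcodes (2.32%). Its level was 178 CPM in P180 against 2.60 CPM in E18.5 barcodes, a log2 ratio of 6.09 (95% interval 5.43 to 6.85). After thinning every barcode to 1000 UMIs, it was detected in 12.9% of P180 and 0.166% of E18.5 barcodes. Haemoglobin-rich barcodes of the P180 library held a UMI of it in 3.11%. Within the library Igf2bp3 was within 2-fold between the class II groups, at 170.0 CPM in class II-rich and 180.4 CPM in class II-poor ones, and it stood at 124 CPM in granule progenitors and 66.02 CPM in neutrophils. Arid3a, a DNA-binding protein of fetal-type lymphopoiesis, stood at 121 CPM in P180 against 16.9 CPM in E18.5 barcodes. Hmga2, a chromatin protein of fetal stem cells, was sparser, with 72 UMIs in 17 barcodes, all class II-poor, against 1 UMI in the E18.5 barcodes. Lin28b, which blocks the maturation of let-7 microRNAs, had 54 UMIs in 23 barcodes against 0 UMIs, at least 21.3-fold higher. Of the 21 genes on the fetal and imprinted list 15 had too few UMIs on both sides to be measured, and Hmga2, Lin28b and Igf2bp3 were measured through the P180 side alone, so no count over the list is drawn on.

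Single calgranulin and progenitor genes differed too. The S100 and calgranulin list went both ways in the core, with 2 of 8 higher and 2 lower and a median log2 ratio of 0.04. S100a8 stood at 6133 CPM in P180 against 590.0 CPM in E18.5 barcodes over all barcodes of the rule. In the core it stood at 6446 CPM in the P180 core against 56.7 CPM in the E18.5 core, and its log2 ratio was 6.83 (95% interval 6.44 to 7.25). Its partner S100a9 (chr3:90692632-90695721, minus strand) stood at 4407 CPM in the P180 core and 24.6 CPM in the E18.5 core. The libraries hold 852 and 18 barcodes of Camp and Ngp neutrophils, and haemoglobin-rich barcodes of the P180 library, which should lack S100a8, stood at 2264 CPM, whereas the class II-rich barcodes, of like depth to the core, stood at 379.6 CPM. The part of free neutrophil RNA in the S100a8 difference was not tested. Prtn3, the granule protease proteinase 3, was used by the rule and is given as a description. It stood at 690.2 CPM in the P180 core and 37.4 CPM in the E18.5 core, both under the ceiling that the rule sets. Of the myeloid progenitor list, 6 of 14 measured genes were higher and 2 lower over all barcodes of the rule, and 5 of 10 were higher and 0 lower in the core. A gene low in the smaller E18.5 core entered the core count only through the P180 side, so that count is not drawn on. Cd34 stood at 69.2 CPM in the P180 core and 2.14 CPM in the E18.5 core, where 2.14 CPM is 2 UMIs. Myb, a factor of early progenitors, stood at 18.1 CPM in the P180 core and 1.07 CPM in the E18.5 core, where 1.07 CPM is 1 UMI. With so few UMIs the size of the Cd34 and Myb differences is uncertain. Ifitm1, a membrane protein that restricts virus entry, stood at 172 CPM in the P180 core and 7.48 CPM in the E18.5 core. Among 19 measured ribosome and growth genes, 6 were higher by 2-fold or more in the core, a share near the 24.4% of all genes.

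Several classical monocyte genes were lower in the P180 core than in the E18.5 core, and fewer where the core was not used. Of the 16 classical monocyte genes outside the rule, 10 were at least 2-fold lower and 0 higher in the core, with a median log2 ratio of -1.09. Of all genes in the core, 7.09% were lower and 24.4% higher. In all class II-poor barcodes 4 of the 16 were lower and 1 higher, with a median of -0.47. There 13.2% of 8246 genes were lower and 15.1% higher. Over all barcodes of the rule 3 were lower and 3 higher. Chil3, a chitinase-like protein, stood at 48.3 CPM in the P180 core and 705 CPM in the E18.5 core, a log2 ratio of -3.87 (95% interval -4.11 to -3.63). S100a4, a calcium-binding protein of motile cells, stood at 446 CPM in the P180 core and 2893 CPM in the E18.5 core, and Fn1 at 322 CPM in the P180 core and 1238 CPM in the E18.5 core. The markers themselves are given as a description. They chose the barcodes, the core asks for 4 of them again, and a shallower barcode needs higher levels to enter. Median depths were 23784 UMIs in the P180 core and 8542.5 UMIs in the E18.5 core. The part of this choice in the differences of the other classical genes was not tested. Ly6c2 stood at 1146 CPM in the P180 core and 1051 CPM in the E18.5 core. F13a1 stood at 608 CPM in the P180 core and 995 CPM in the E18.5 core, and over all barcodes of the rule at 414 CPM in P180 and 151 CPM in E18.5 barcodes. Csf1r stood at 121 CPM in the P180 core and 313 CPM in the E18.5 core.

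Several non-classical monocyte genes were lower as well. Of 20 measured genes 12 were at least 2-fold lower and 1 higher over all barcodes of the rule. There 14.2% of all genes were lower and 10.6% higher. Of 13 measured in the core 5 were lower, 1 higher and 7 within 2-fold, with a median log2 ratio of -0.79. In the core 7.09% of all genes were lower and 24.4% higher. Cx3cr1, the fractalkine receptor, stood at 19.02 CPM in P180 against 145 CPM in E18.5 barcodes over all barcodes of the rule. In the core it stood at 23.4 CPM in the P180 core against 132 CPM in the E18.5 core. Fcgr4, an IgG receptor of non-classical monocytes, stood at 7.37 CPM in P180 and 134 CPM in E18.5 barcodes over all of them. Ear2, a ribonuclease on the same list, was the 1 that was higher in the core, at 122 CPM in the P180 core against 54.5 CPM in the E18.5 core. Among transcription factors, Klf4 stood at 397 CPM in the P180 core and 1644 CPM in the E18.5 core. Irf8 stood at 396 CPM in the P180 core and 219 CPM in the E18.5 core. Of 35 such factors in the core, 3 were higher, 14 lower and 18 within 2-fold, beside the same shares of all genes.

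Many class I, interferon and inflammatory genes were lower in both comparisons. Of 20 class I presentation genes 12 were lower over all barcodes of the rule, and of 13 in the core 5 were, with 0 higher in either. Of all genes, 14.2% were lower over all barcodes of the rule and 7.09% in the core. The other 8 class I genes in the core were within 2-fold, and the core median log2 ratio of the list was -0.30. B2m, the light chain of class I molecules, stood at 558 CPM in the P180 core and 2082 CPM in the E18.5 core. H2-K1 stood at 143 CPM in the P180 core and 975 CPM in the E18.5 core and H2-D1 at 279 CPM in the P180 core and 1246 CPM in the E18.5 core. Of 35 interferon response genes over all barcodes of the rule, 20 were lower and 2 higher. Of 25 in the core, 16 were lower and 2 higher. Ifi27l2a stood at 316 CPM in the P180 core and 1784 CPM in the E18.5 core. Rsad2, an antiviral enzyme, was 1 of the 2 that were higher in the core, at 46.3 CPM in the P180 core and 16.04 CPM in the E18.5 core. Of 23 inflammatory genes 11 were lower and 0 higher over all barcodes of the rule, and of 19 in the core 12 were lower and 1 higher. Ccl2, the ligand of Ccr2, stood at 18.3 CPM in the P180 core and 278 CPM in the E18.5 core. Cxcl10, a ligand of Cxcr3, was the 1 that was higher, at 313 CPM in the P180 core and 141 CPM in the E18.5 core. Immediate early genes moved with them. Of 20 dissociation stress genes 14 were lower in the P180 core. Fos stood at 2104 CPM in the P180 core against 5740.3 CPM in the E18.5 core and Egr1 at 188 CPM in the P180 core against 1209 CPM in the E18.5 core. The part of tissue handling in the inflammatory genes was not tested. Among genes outside the lists that could be named, Stxbp6, related to syntaxin-binding proteins, had the lowest ratio, at 7.37 CPM in the P180 core against 387 CPM in the E18.5 core. Gngt2, a G protein gamma subunit, stood at 22.1 CPM in the P180 core and 338 CPM in the E18.5 core.

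**Figure D4:**
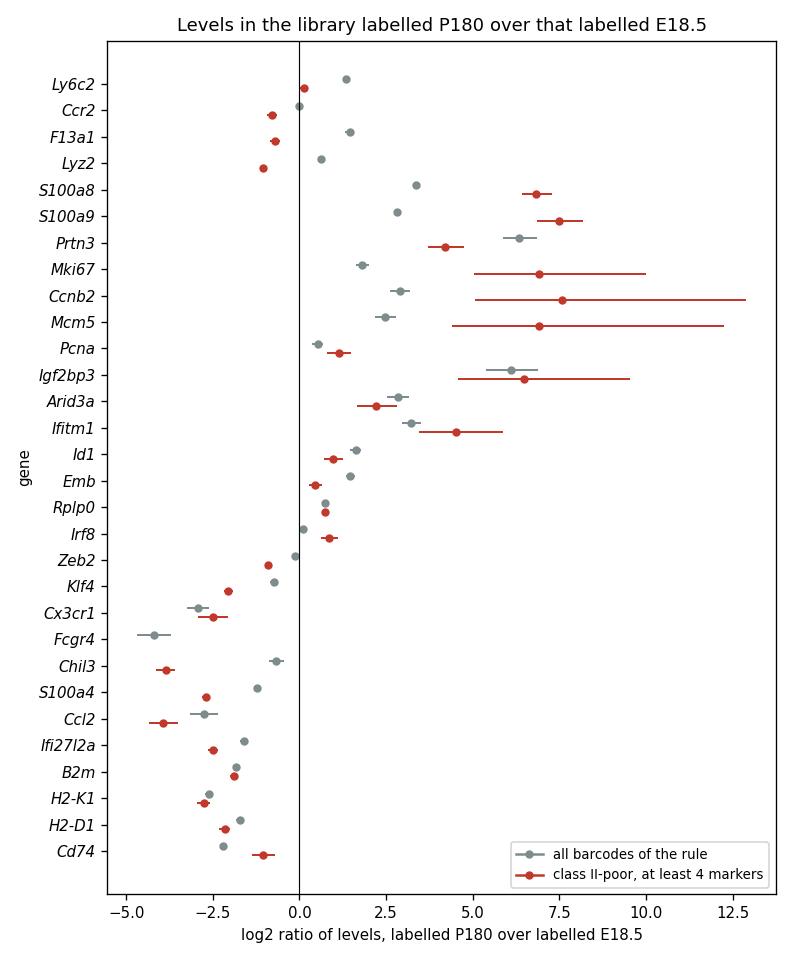
Log2 ratios, P180 over E18.5, of 30 genes with 95% exact Poisson intervals, over all barcodes of the rule (grey) and in the core of class II-poor barcodes with at least 4 markers (red). Mitosis genes, Igf2bp3 and S100a8 lie to the right of 0 in both, Cx3cr1, B2m and H2-K1 lie to the left in both, and F13a1 changes side.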

How the data were processed

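Single-cell RNA of 2 livers was measured, 1 library labelled P180 and 1 labelled E18.5. The authors deposited whole UMI counts per gene and barcode, and per the file headers these came from Cell Ranger 7.1.0, for 10x 3′ v3 chemistry per the labels' protocols. The submitters' processing notes list mm10, fastp, Trimmomatic, Cell Ranger, Seurat and edgeR without their roles. From the deposited counts, barcodes were kept that had 200 or more genes, 500 or more UMIs and less than 25% mitochondrial UMIs. No doublets were removed in the main values. Scrublet (scanpy 1.11.5), run as an alternative, ranked 735 (7.67%) of the kept P180 barcodes as likely doublets, 13 of the 234 among them. The total counts of the groups compared ranged from 935313 UMIs in the E18.5 core to 84044098 in the other kept P180 barcodes. The barcodes of the rule held 5836686 UMIs in P180 and 6913837 in E18.5. Levels are sums of counts over the barcodes of a group per 1000000 UMIs.

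Cells are not replicates, and with 1 library per stage no test was made. Log2 ratios have exact conditional Poisson intervals and shares exact Clopper-Pearson intervals at 95%, both for counting error only, and the calculation was tested on simulated data. A gene was counted where it had at least 50 UMIs on 1 side, and as higher or lower from 2-fold. A count of 0 was replaced by a floor of 3 UMIs over the group, and a share of 0 has the limit that 3 counts of the total give. Counts of list genes without those the rule or the class II split used, and relative to the scaling shift, were added after the data were seen. Genes that overlap or share reads with close relatives could have split counts. The members and the 35 gene lists were chosen with earlier results of these data known. Of the list genes, 3 (Clec7a, Mx1 and Ahsp) were not in the gene table. Genes are named from the lists, the highest and those at least 2-fold apart, and from the 10 highest and 10 lowest ratios among genes with at least 200 UMIs. Within the class II and mitosis splits no gene outside the lists is named. Xist was named after its values were seen. A few genes that the rule admits are not reported here. Gene coordinates are from GENCODE M21 (mm10) and promoters from RefSeq. The tools were scipy 1.17.1 for intervals, numpy 2.4.6 and pandas 2.3.3 for sums, and matplotlib 3.10.9 for figures, under Python 3.11.15.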

Additional observations from a re-analysis of the deposited data

How the results depend on the processing

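No paired analysis was possible because each stage has 1 library. The number of barcodes meeting the rule ranged from 194 (at least 10 marker UMIs) to 269 (at least 3 marker UMIs), with 221 once likely doublets were left out. The class II-rich share ranged from 23.5% to 26.1% across the alternatives. The mitosis-rich share was 58.5% with a limit of 0.15%, 18.8% with a limit of 0.6%, 50.3% in class II-poor barcodes and 52.9% in the core, and 44.6% after thinning to 1000 UMIs. The core and the class II-poor comparison were chosen after the data were seen. Of the lists compared between P180 and E18.5, the neutrophil list had 8 genes higher in class II-poor barcodes, the dissociation stress list had 11 lower there and 14 lower in the core, the class II presentation list had 1 lower in each, and the non-classical and the class I presentation list had 5 lower each in the core, where 13 genes of each were measured. Between class II-rich and class II-poor barcodes, 7 of 10 pattern recognition genes with at least 200 UMIs were lower. Changes of sign were recorded only for named genes at least 2-fold apart in the main values. Among these, the log2 ratio changed sign in the core for F13a1 (-0.71), Hp (-0.70) and Vcan (-0.61). It also did so for Retnlg (-5.31) without barcodes rich in Retnlg, Gzma, Mcpt8 or Prss34. Of the other values of named genes, 974 stayed within the counting interval and 322 moved outside it with the sign of every 2-fold difference kept. The cause was not tested. Depth limits what can be said of genes with few UMIs, and counts of 0 in 108 or 234 barcodes do not show absence.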
